A study of Mus musculus with 24 samples.

Results

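Tff3 encodes trefoil factor 3 and was taken up here in mouse liver because its signal was far lower in HFoleic than in reference mice on these same arrays. That HFoleic vs. reference difference chose the gene, so its levels in the 3 groups are described mouse by mouse, with no test. Every probe named Tff3 on the array was taken, which gave 1 probe and 1 gene of 37074 gene names and 56605 probes. All 24 arrays measured liver RNA of male C57Bl6J mice of the third generation of their lineage, 1 array per mouse, killed in a fasting period. The reference group (STD_Cont, 9 mice) came from the control lineage, which had received a sunflower oil rich in oleic acid, and was fed a low-fat diet. HFoleic (HFD_Cont, 8 mice) came from the same lineage and ate an obesogenic diet with much fat and sucrose. HFepa (HFD_O3, 7 mice) came from a lineage given fish oil rich in eicosapentaenoic acid (EPA) over 3 generations, and was fed the same obesogenic diet. EPA-lineage mice on the low-fat diet were not among the samples, so in HFepa vs. reference the diet and the lineage differed at once. The HFoleic vs. reference and HFepa vs. reference comparisons share the same reference mice and are not independent.

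Trefoil factors are small secreted peptides, held in a compact shape by disulfide bonds, that mucus-producing cells release together with mucins. They bind mucins, take part in the repair of epithelia and resist digestion. Tff3 is best known from the goblet cells of the intestine, and in the liver it is known from the epithelium of the bile ducts as well as from hepatocytes. Its close relatives Tff1 and Tff2 are mainly gastric.

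The probe sequences are shown because the whole account rests on 1 probe, which lies in a cluster with both relatives. The first 30 bases of each probe, as the scanner files give them, were the following, and capitals mark AATAAA, the hexamer known as the polyadenylation signal.
Tff3: ctgctgcaggccAATAAAggagccaggagt
Tff2: ttccacccacttccaaaccaagaatcggag
Tff1: cccttctaaggtccatcctgagagaactgg
In build mm9 the Tff3 probe lies on the minus strand at chr17:31262279-31262338, the Tff2 probe at chr17:31279256-31280080 and the Tff1 probe at chr17:31298471-31298530, both also on the minus strand. The files assign the Tff3 probe to its mRNA, and whether it lies in coding or untranslated sequence was not analysed here. AATAAA stood as printed in 9.77% of the 56605 probes of 60 bases and on either strand in 13.3%, and the whole Tff3 probe held 2 copies. Sequence shared between probes was short. The longest run of bases that the Tff3 probe shared with any other probe of the array was 15, and with the Tff1 and Tff2 probes it was 6. GC content was 51.7% in the Tff3 probe, 51.7% in the Tff2 probe and 55% in the Tff1 probe.

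Between 50.9% and 60.8% of the probes on an array were well above background, and hepatocyte markers were high on all 24 arrays. The summed signal of the 10 hepatocyte markers ran from 1210000 to 1321000 in reference, from 1227000 to 1341000 in HFoleic and from 1230000 to 1313000 in HFepa. Reference mouse 5 stood apart, with a median correlation of 0.976 with the other arrays of its group against 0.988 to 0.994 for the other 23 arrays. It also had the highest Tff3 signal of all mice. Reference mouse 3, with the next-highest Tff3 signal, had the highest signal of 4 genes of intestine and pancreas that were dim elsewhere. The Tff3 levels and most slopes on Tff3 are therefore given also without reference mouse 5, and some results without both mice, the choice to leave out both together having been made after the data were seen.

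Tff3 was detected in every liver, though dimly in some HFoleic mice. Its probe was well above background on 24 of 24 arrays and saturated on none. The unnormalized median signal ran from 852 to 18752 in reference (median 2164), from 108 to 3039 in HFoleic (median 269.75) and from 302.5 to 1727.5 in HFepa (median 553). The value of 108 was that of HFoleic mouse 1, where the median over all probes of the array was 74, with no background subtracted. On the log2 scale, after quantile normalization, reference mice 1 to 9 had Tff3 signals of 11.26, 10.74, 12.09, 11.40, 14.08, 10.14, 10.86, 9.63 and 11.43. HFoleic mice 1 to 8 had 6.63, 11.75, 7.36, 8.38, 7.75, 10.14, 8.88 and 7.995. HFepa mice 1 to 7 had 10.01, 10.54, 8.49, 9.13, 10.03, 8.83 and 8.37. The reference livers were thus mostly the brightest, and the HFoleic livers covered the widest range, from the dimmest of all 24 to 1 that was brighter than 7 of the 9 reference mice.

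**Figure D1:**
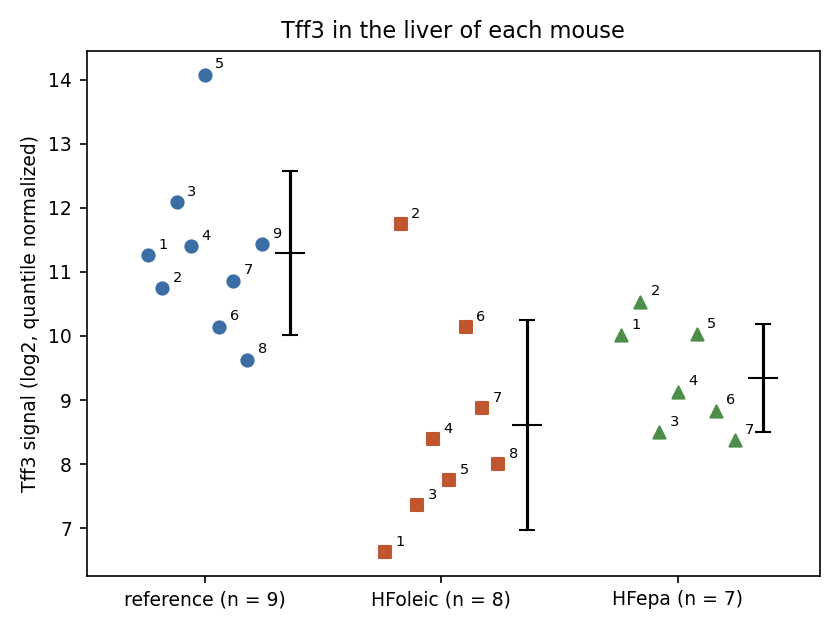
Tff3 log2 signal (y axis, quantile normalized) of each mouse in the 3 groups (x axis). Each point is 1 mouse with its number, and the bar beside each group is the mean with 1 SD to either side. Reference mouse 5 at 14.08 and HFoleic mouse 2 at 11.75 lie farthest above the others of their groups.

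Mean Tff3 signal was 11.29 ± 1.27 in reference (log2, SD, n = 9), 9.34 ± 0.85 in HFepa (SD, n = 7) and 8.61 ± 1.64 in HFoleic (SD, n = 8). HFoleic vs. reference was therefore -2.68 on the log2 scale, a mean 6.42-fold lower, and HFepa vs. reference was -1.95, or 3.86-fold lower. Each of these differences was larger than the SD of either group compared, which the choice of the gene favoured. HFepa was 0.73 above HFoleic, 1.66-fold, which is less than the SD of either group. The SD is the spread between mice and not the error of a difference of means, so these comparisons are descriptions only. No interval or p-value is attached to these 3 differences because they are, or share arrays with, the contrast that chose the gene.

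The groups overlapped. Below every reference mouse lay 6 of 8 HFoleic and 4 of 7 HFepa mice, and below the reference mean lay 7 of 8 HFoleic and 7 of 7 HFepa mice. Only 2 of the 9 reference mice were above every HFoleic mouse, because of HFoleic mouse 2, whereas 7 of 9 were above every HFepa mouse. Below every HFepa mouse lay 4 of 8 HFoleic mice. Without reference mouse 5 the reference mean was 10.93 ± 0.78 (SD, n = 8), HFoleic vs. reference was -2.34 (5.05-fold lower) and HFepa vs. reference was -1.60 (3.04-fold lower). Without reference mice 3 and 5 the reference mean was 10.78 ± 0.68 (SD, n = 7), and the differences were -2.17 (4.51-fold lower) and -1.44 (2.71-fold lower). The fold for HFoleic was thus smaller without these mice and remained several-fold in either case.

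Mice of all 3 groups shared each of the 3 slides, which hold 8 arrays in 2 rows. HFoleic was below reference on every slide, by differences of -3.31, -3.07 and -1.91 on slides 1, 2 and 3. HFepa was below reference too, by -3.23, -0.75 and -2.29. HFepa vs. HFoleic had no single direction, with 0.08 on slide 1, 2.32 on slide 2 and -0.38 on slide 3. Within the slide rows, HFoleic vs. reference was -2.22 in row 1 and -3.12 in row 2, and HFepa vs. reference was -2.29 and -1.63. Each slide held only 2 or 3 mice of a group, so these differences are descriptions. Reference mouse 5 and HFoleic mouse 2 both lay on slide 1.

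**Figure D2:**
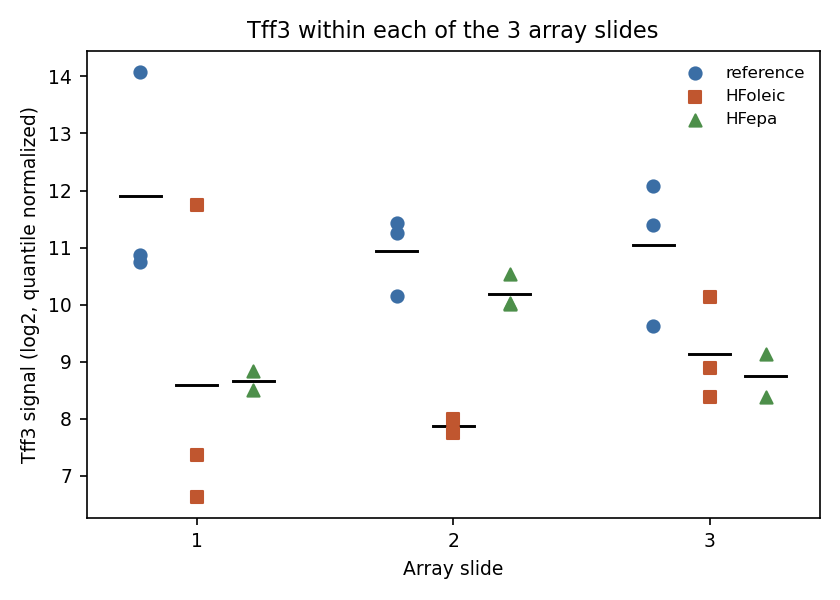
Tff3 log2 signal (y axis) of each mouse by slide (x axis), with 1 point per mouse, the groups told apart by colour and marker, and a black bar at each mean. On every slide the HFoleic mean lies below the reference mean, with differences of -3.31, -3.07 and -1.91 on slides 1, 2 and 3.

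Tff3 was among the most variable genes between mice of the same group. Its within-group SD was 1.31 on the log2 scale, against a median of 0.184 over the 30003 tested probes, and 20 probes (0.0667%) had a larger one. Those 20 included probes of Cfd, the complement factor D gene also known as adipsin, of the lipid droplet protein gene Cidea, of Hsd3b5, Cyp2b9 and Cyp2b10, steroid and drug metabolism genes, and of the clock gene Dbp. Without reference mouse 5 the Tff3 SD was 1.17, with 27 probes (0.089%) above it. Without mice 3 and 5 it was 1.17, with 28 of 29576 above it. The wide spread of Tff3 was therefore seen without the 2 brightest mice as well, with HFoleic mouse 2, the next brightest, kept in.

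Neither relative of Tff3 was bright enough to test with all 24 mice. Tff1, the gastric trefoil factor released by surface mucous cells, was well above background on 9 of 24 arrays, 6 of them reference, 2 HFoleic and 1 HFepa. Its signals ran from 5.53 to 6.26 in reference (median 5.80, 8 mice, with 1 outlier spot left out), from 5.52 to 6.67 in HFoleic (median 5.57) and from 5.58 to 5.93 in HFepa (median 5.66). Tff2, released by mucous neck cells of the stomach, was well above background on 4 arrays, 2 of them reference, 1 HFoleic and 1 HFepa. Its signals ran from 5.04 to 6.05 in reference (median 5.40), from 5.21 to 6.48 in HFoleic (median 5.33) and from 5.22 to 8.42 in HFepa (median 5.51). For both genes the ranges of the 3 groups overlapped, and HFepa mouse 4, at 8.42 for Tff2, lay well above all other mice.

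The genes that accompany trefoil factors in mucus were mostly not detected. Of 18 listed genes, Tff1 and Tff2 among them, 5 were bright enough to test, and the other 13 were well above background on 1 to 10 arrays each. None of the 5 passed limma's test (adjusted p under 0.05 by Benjamini-Hochberg over all probes) in HFoleic vs. reference, where 7.23% of all tested probes did, with 1214 higher and 956 lower. The secreted mucin Muc5ac was at -0.20 (limma adjusted p = 0.459), Muc5b at -0.06 (adjusted p = 0.732) and Muc6 at -0.06 (adjusted p = 0.713) on the log2 scale. Spdef, a transcription factor of goblet cells, was at -0.37 (limma adjusted p = 0.147), and Creb3l1, a regulator of secretory capacity, at -0.17 (adjusted p = 0.339). Their median was -0.17, beside -0.0007 over all probes, and none of them passed in HFepa vs. reference, where 0.393% of all probes did. Without reference mouse 5 Tff1 was bright enough to test as well. It did not pass in HFoleic vs. reference, at -0.09 (limma adjusted p = 0.78).

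Of 7 proposed receptors and binding partners of trefoil peptides, 2 were tested and neither passed in any comparison. Ackr3, a scavenging chemokine receptor, had a mean of 6.59 ± 0.70 in reference and 6.47 ± 0.16 in HFoleic (limma adjusted p = 0.812). Egfr, the epidermal growth factor receptor, had 12.97 ± 0.53 and 12.47 ± 0.76 (adjusted p = 0.323). The other 5, such as Lingo2 and Cxcr4, were well above background on at most 5 arrays.

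Among 11 transcription factors linked to Tff3 transcription in other tissues, 10 were tested and none passed in any comparison. The closest in HFoleic vs. reference was Foxa2, a pioneer factor of endoderm, at 0.48 (limma adjusted p = 0.0727), in the direction opposite to Tff3. Klf4, an epithelial zinc finger factor, was at -0.40 in HFoleic (adjusted p = 0.157) and 0.55 in HFepa (adjusted p = 0.141), each against reference. Stat3, which carries cytokine signals, was at 0.15 (adjusted p = 0.587), and the intestinal factor Cdx2 was well above background on 1 array.

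Tff3 is also a product of bile duct cells, so markers of other cell types are given beside it. In whole liver, fewer cells of a type and less RNA per cell cannot be told apart. Of 15 cholangiocyte markers 9 were tested, and the summed signal of the list ran from 2389 to 12750 in reference, from 2695 to 3802 in HFoleic and from 2642 to 4468 in HFepa. Much of this sum was carried by Spp1, by far the brightest of the list, with unlogged signals from 1121 to 9793. The value of 12750 was that of reference mouse 5, which had the highest signal of 6 of the 9 tested markers. Its signal of Spp1, a secreted phosphoprotein of duct cells, was 13.26 against 11.57 or less in the other 23 mice. Its Krt19, a keratin of duct cells, was 8.06 against 7.52 or less. The part of these duct markers in the Tff3 signal was not tested.

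Of the duct markers, Sox9, a transcription factor of duct and progenitor cells, was the 1 of 9 called in HFoleic vs. reference, where 7.23% of all probes were, and it fell. It ranged from 7.30 to 9.23 in reference (median 7.71), from 7.04 to 7.65 in HFoleic and from 6.92 to 7.75 in HFepa. The change was -0.65 (SE 0.18, limma adjusted p = 0.0279), and -0.48 (adjusted p = 0.0153) without reference mouse 5. It missed the threshold without HFoleic mouse 7 (adjusted p = 0.0539) or HFoleic mouse 8 (adjusted p = 0.0568), each at -0.62, without the filter on dim probes (adjusted p = 0.0553) and by the methods' t-test (adjusted p = 0.0863). Without reference mouse 5 Pkhd1, the fibrocystin gene, was called as well and rose by 0.43 (limma adjusted p = 0.0182), with 0.24 (adjusted p = 0.504) in 24 mice. Keratin Krt19 was at -0.33 (adjusted p = 0.396) and Spp1 at 0.03 (adjusted p = 0.97). The median of the list was -0.14. In the fit within groups described below, 7 of the 9 had a slope on Tff3 above 0, with a median of 0.107. None passed, and 4 had an unadjusted p under 0.05 by limma. Without reference mouse 5 the median slope was 0.01, with 5 of 9 above 0 and 0 under an unadjusted 0.05.

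Intestinal and gastric markers other than Fabp2 and Gkn3 were near background in most mice. Of 10 intestinal and gastric markers, 8 were well above background on at most 5 arrays and 2 were tested, Fabp2, a fatty acid binding protein that is bright in liver too, and Gkn3. Without Fabp2 the summed signal ran from 395.5 to 982.3 in reference, from 388.1 to 477 in HFoleic and from 368.3 to 485.3 in HFepa. The value of 982.3 was that of reference mouse 3. In this mouse the sucrase gene Sis had a log2 signal of 8.03 (5.57 in the next mouse), the intestinal phosphatase gene Alpi 7.57 (5.14), the brush border gene Vil1 7.35 (6.29) and the pancreatic secretory gene Reg1 10.78 (7.22). Gkn1, a defining marker of gastric surface cells, was well above background on no array. Of 12 exocrine pancreas markers 5, Cela1, Cela2a, Ctrb1, Cel and Clps, were well above background on 24 arrays and tested, and none was called. The elastase gene Cela1 was by far the brightest, with unlogged signals from 3327 to 13770, and Cela2a ran from 86.9 to 1460, its highest in an HFepa mouse. Carried mainly by Cela1, the summed signal of the list ran from 4283 to 9523 in reference, from 4384 to 14600 in HFoleic and from 4368 to 8779 in HFepa. The part of such tissue in the Tff3 signal of reference mouse 3 was not tested, and its value was 12.09.

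The neighbours of Tff3 on chromosome 17 showed both higher and lower signals in HFoleic. Within 500 kb of its probe lay 35 probes of 24 gene names, of which 17 besides Tff3 were tested. Their HFoleic vs. reference changes ran from -0.83 to 0.59 on the log2 scale, and 3 of the 17 (17.6%) were called, against 7.23% over all probes. None was called in HFepa vs. reference. The nearest tested neighbour, the cholesterol transporter gene Abcg1 at -9699 bases (towards lower coordinates), was at -0.03 (limma adjusted p = 0.927).

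Tmprss3, a membrane serine protease gene past the trefoil cluster on the same strand, 54205 bases from the Tff3 probe, fell in HFoleic. Its signal ran from 12.47 to 13.43 in reference (median 13.12), from 11.82 to 12.64 in HFoleic (median 12.26) and from 11.81 to 13.23 in HFepa (median 12.59). Reference and HFoleic overlapped only through reference mouse 8. The change was -0.83 (SE 0.17, limma adjusted p = 0.00369) in HFoleic, -0.80 (adjusted p = 0.0133) without reference mice 3 and 5, and -0.49 (adjusted p = 0.193) in HFepa. Within groups Tmprss3 had a slope of 0.091 on Tff3 (adjusted p = 0.507), so mice with more Tff3 than others of their group were not shown to have more Tmprss3.

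The other called neighbours rose in HFoleic and were less stable. LOC102631757, an uncharacterized gene on the plus strand with a probe 37459 bases from that of Tff3, rose by 0.59 (SE 0.16, limma adjusted p = 0.0268). Its second probe, 28609 bases from Tff3, was at 0.19 (adjusted p = 0.352), and the call of the first was lost without reference mouse 3 (adjusted p = 0.0517), among others. Ndufv3, a subunit of respiratory complex I, rose by 0.17 at 1 probe (adjusted p = 0.0367) and was at -0.01 (adjusted p = 0.964) at the other. Its call was lost when any of several mice was left out, with reference mouse 5 among them (adjusted p = 0.0523).

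**Figure D3:**
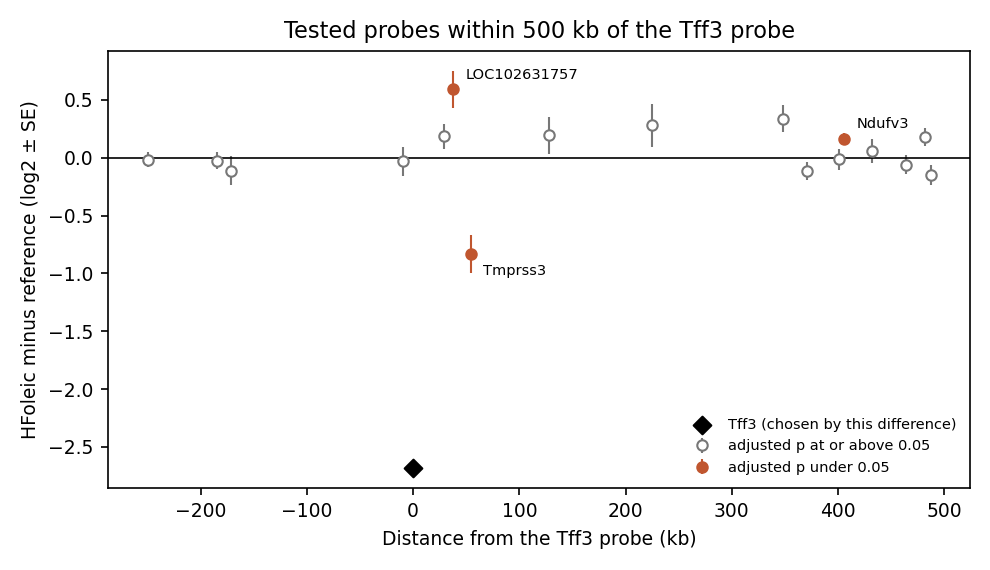
HFoleic minus reference difference (y axis, log2, with 1 SE where tested) of each tested probe within 500 kb of the Tff3 probe, by distance from it (x axis, kb). Filled points are probes with an adjusted p under 0.05 and the diamond is Tff3, which was chosen by this difference. Tff3 is at -2.68, and Tmprss3 at -0.83 is the lowest of its tested neighbours.

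Which genes varied along with Tff3 among mice of the same group was asked with a fit that did not use the group differences. Each probe was fitted by limma on the Tff3 log2 signal with the 3 group means in the model, so a slope is a gene's log2 change per log2 unit of Tff3. Of 30002 probes 1 passed, or 0.00333%, and 3783 had an unadjusted p under 0.05. The values of that probe are not reported here.

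The 7 other genes with positive slopes and the 6 with negative slopes that had the smallest p for each sign did not pass with all 24 mice. Positive slopes were held by Aph1b, a gamma-secretase subunit (0.175, limma adjusted p = 0.0548), by Acsl3 (0.166, adjusted p = 0.0681) and by Acsl4 (0.232, adjusted p = 0.0779), both of which activate long-chain fatty acids. Next came Gldn (0.49, adjusted p = 0.0779), the nuclear receptor gene Ppard (0.094, adjusted p = 0.081), the membrane protein gene Tmem176a (0.175, adjusted p = 0.111) and the macrophage gene Mpeg1 (0.245, adjusted p = 0.111). Gldn was well above background on 8 arrays, 7 of them reference and none of them HFoleic, so its slope rests mainly on reference mice. Inside single groups, Acsl4 had a slope of 0.447 in reference, 0.113 in HFoleic and 0.103 in HFepa. Mpeg1 had 0.009 in HFepa, while the slopes of Acsl3 were alike, at 0.171, 0.169 and 0.139. Without reference mouse 5, which had the highest Acsl4 signal at 13.55, the 7 slopes ran from 0.114 to 0.303, and that of Ppard passed. Acsl4 also fell in HFoleic vs. reference, by 0.66 on the log2 scale (limma adjusted p = 0.0301) and by 0.48 (adjusted p = 0.0124) without that mouse. Second probes gave smaller slopes for Acsl3 (0.091, adjusted p = 0.349) and Mpeg1 (0.141, adjusted p = 0.23). Other probes of Acsl4 gave like slopes (0.245, adjusted p = 0.111, and 0.219, adjusted p = 0.114).

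Negative slopes on Tff3 were held by Wnt9a, a Wnt ligand (-0.141, limma adjusted p = 0.0779), Mettl22 (-0.09, adjusted p = 0.111), the kinase genes Nim1k (-0.132, adjusted p = 0.111) and Mapk15 (-0.193, adjusted p = 0.111), Opa1, which fuses mitochondrial inner membranes (-0.078, adjusted p = 0.113), and Retsat, a saturase enzyme (-0.25, adjusted p = 0.115). Without reference mouse 5 the 6 slopes ran from -0.158 (Retsat, adjusted p = 0.512) to -0.067 (Opa1, adjusted p = 0.434), and none passed. Second probes of Opa1 (0.021, adjusted p = 0.865) and Nim1k (-0.012, adjusted p = 0.877) did not show the same slope. That of Mapk15 had a smaller slope of the same sign (-0.083, adjusted p = 0.43), and that of Mettl22 had the same slope (-0.09, adjusted p = 0.215). Inside HFepa alone the slopes of Opa1 (0.036) and Mapk15 (0.014) were above 0, while those of the other genes named here were below 0.

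The set of genes called along with Tff3 depended on single mice, reference mouse 5 among them. There were 17 called probes without HFepa mouse 4 and 12 without HFoleic mouse 2. Without reference mouse 5 there were 5, among them those of Ppard (0.114, limma adjusted p = 0.0423), Tm7sf2 (0.188, adjusted p = 0.0423), Dpp6 (0.115, adjusted p = 0.0423) and Gsta2 (-0.499, adjusted p = 0.0292). Tm7sf2, a sterol reductase of cholesterol synthesis, had a slope of 0 with all 24 mice (adjusted p = 0.999). Gsta2, a glutathione transferase, had -0.146 (adjusted p = 0.719). Its signal in reference mouse 5 was 15.01, against 11.70 to 12.62 in the other reference mice, and its lowest value of all, 10.33, was that of HFoleic mouse 2. Without reference mice 3 and 5 the slope of Gsta2 was -0.537 and that of Tm7sf2 0.209 (adjusted p = 0.00247 for each). These genes outside the naming rule were singled out after their values were seen.

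Genes of cholesterol synthesis gave opposite directions between and within groups. In HFoleic vs. reference 15 of 20 rose and none fell, against 7.23% of all probes called in either direction, with a median change of 0.96 beside -0.0007 over all probes, while Tff3 was lower. Msmo1, a sterol demethylation enzyme, rose by 1.86 (limma adjusted p = 0.00344), and Insig1, which restrains the pathway, by 1.47 (adjusted p = 0.000401). Within groups, with 1 slope per gene fitted over the 3 groups together, all 20 had a slope on Tff3 above 0. Their median was 0.164, where 46.2% of all probes had a slope above 0 and the median over all probes was -0.0036. Slopes inside each single group were not compared for this list. None of the 20 passed over all probes, and 13 had an unadjusted p under 0.05.

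The largest slope of the list was that of Sqle, squalene epoxidase, an early oxygen-requiring step of the pathway (0.443, limma adjusted p = 0.21). Its signal ran from 7.80 to 8.95 in reference (median 8.55), from 8.19 to 13.04 in HFoleic (median 10.08) and from 8.47 to 10.99 in HFepa (median 9.68). HFoleic mice 2 and 6, with the most Tff3 of their group, had the most Sqle of all mice, at 13.04 and 11.67. The lowest value, 7.80, was that of reference mouse 5. Without that mouse the median slope of the list was 0.248, with 20 of 20 above 0 and 16 with an unadjusted p under 0.05, and the slope of Sqle was 0.668 (adjusted p = 0.0901). Without HFoleic mouse 2, and with reference mouse 5 kept in, the median fell to 0.057, with 17 of 20 above 0 and none under an unadjusted 0.05. The size of the association thus depended on single mice, and leaving out either of these mice moved it in opposite directions.

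**Figure D4:**
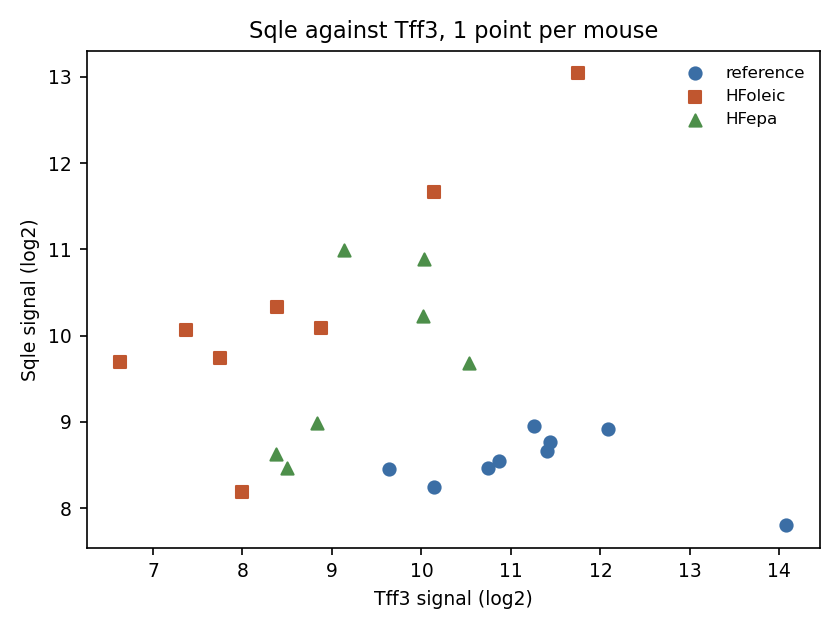
Sqle log2 signal (y axis) against Tff3 log2 signal (x axis), with 1 point per mouse and the groups told apart by colour and marker. HFoleic mouse 2 is the highest point, with 13.04 for Sqle and 11.75 for Tff3, and reference mouse 5 is the rightmost, with 7.80 for Sqle and 14.08 for Tff3.

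**Figure D5:**
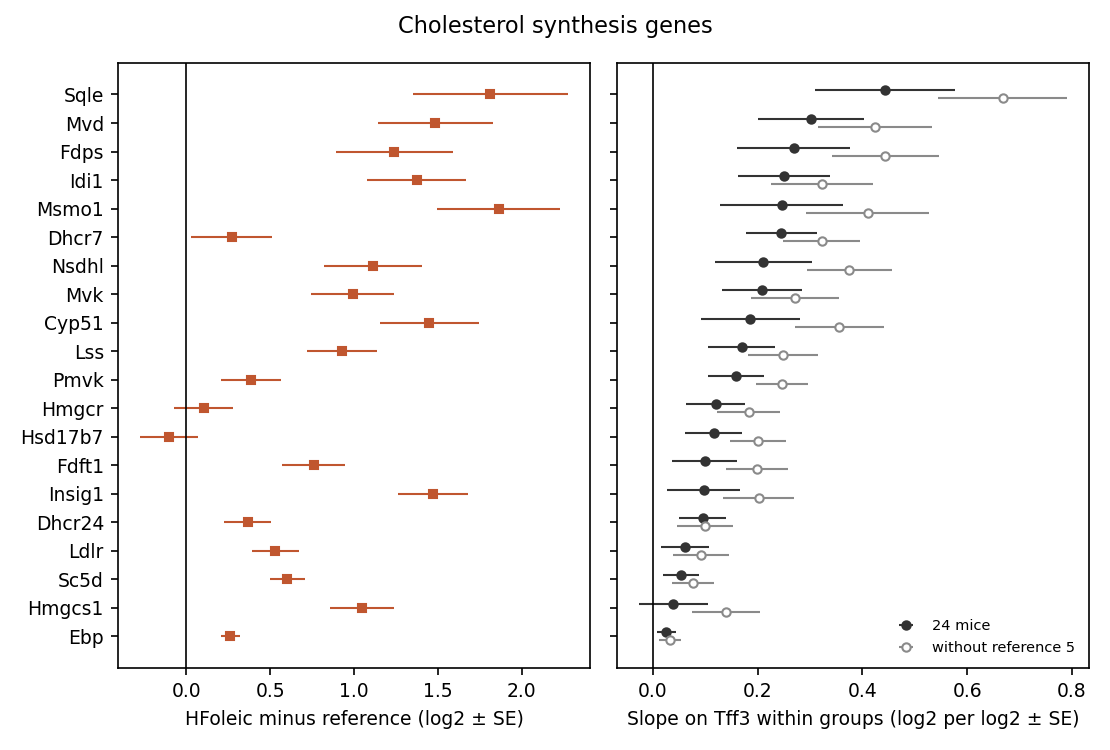
Left, HFoleic minus reference difference (x axis, log2 with 1 SE) of the 20 cholesterol synthesis genes (y axis). Right, slope on Tff3 within groups (x axis, log2 per log2 with 1 SE) with 24 mice (filled) and without reference mouse 5 (open). Of the genes on the left 15 were called higher, and on the right all 20 slopes lie above 0 in both fits.

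Other programs that moved with the diet were not shown to track Tff3 within groups, and no listed gene passed in the slope fit. Of 25 endoplasmic reticulum stress genes 18 rose in HFoleic vs. reference, where 7.23% of all probes were called in either direction, with a median of 0.61, among them the chaperone genes Pdia6 (0.97, limma adjusted p = 0.000253) and Xbp1, the factor of the unfolded protein response (0.68, adjusted p = 0.000769). Their median slope on Tff3 was -0.035, with 3 of 25 above 0, and 0.009 with 16 of 25 above 0 without reference mouse 5. Of 15 PPARalpha and fasting targets 8 fell in HFoleic, such as the carnitine transferase Cpt1a (-0.43, adjusted p = 0.00239), with a median slope of -0.056 with 24 mice and -0.032 without reference mouse 5. The call of Cpt1a was lost in 0 of 34 alternatives, but others of the 8 were less stable. Angptl4 lost its call in 15 and Cyp4a10 in 14. Of 15 genes of gluconeogenesis and insulin response 6 fell and 2 rose, among the latter Srebf1, a factor of fatty acid synthesis (1.02, adjusted p = 0.00552), with median slopes of 0.043 and 0.032. In the same list the insulin receptor substrate gene Irs2 fell by 1.16 on the log2 scale (adjusted p = 0.00169) and had a slope of 0.164 on Tff3 (adjusted p = 0.286), and 0.136 (adjusted p = 0.687) without reference mouse 5.

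Acute phase genes, which hepatocytes make in inflammation, had slopes on Tff3 above 0 in 11 of 12, with a median of 0.05 and none passing, and in 10 of 12 with a median of 0.044 without reference mouse 5. Lcn2 had a slope of 0.497 (limma adjusted p = 0.226), Saa2 of 0.419 (adjusted p = 0.23) and Saa1 of 0.407 (adjusted p = 0.223). Without reference mouse 5 these slopes were 0.322, 0.331 and 0.328. The highest Lcn2 signals of all mice, 12.47 and 12.36, were those of HFoleic mouse 2 and reference mouse 5, the mice with the most Tff3 in their groups. In HFoleic vs. reference 1 of the 12 rose, the metalloreductase gene Steap4 (0.95, adjusted p = 0.00602), which is near the 7.23% called among all probes.

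Hepatocyte zonation, sex-biased and clock genes had no call in the slope fit. Of 12 periportal genes 4 fell and 1 rose in HFoleic, where 7.23% of all probes were called in either direction, the serine dehydratase Sds among the former (-0.96, limma adjusted p = 0.00633), with a median slope on Tff3 of 0.036 with 24 mice and -0.023 without reference mouse 5. Of 12 pericentral genes 3 rose, such as Lgr5, a Wnt co-receptor (0.60, adjusted p = 0.0154), with median slopes of -0.053 and -0.008. Of the 10 hepatocyte markers, 2 fell, the urea cycle gene Cps1 (-0.89, adjusted p = 0.00166) and the tyrosine transaminase Tat (-0.63, adjusted p = 0.00858), with median slopes of -0.006 and -0.008. Of 12 male-biased genes 2 fell, of 7 tested female-biased genes 1 rose and 2 fell, and of 13 tested clock genes 1 rose, Nr1d2 (0.58, adjusted p = 0.01). Their median slopes on Tff3 were -0.077, -0.025 and -0.029 with 24 mice, and 0.054, -0.088 and -0.004 without reference mouse 5, so the median of the male-biased genes changed sign.

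The HFepa livers, whose mean Tff3 lay between the other groups, held no listed gene that passed against reference or against HFoleic. Over all probes, HFepa vs. reference gave 118 calls (0.393%) by limma, but 0 by the methods' t-test (3472 probes with an unadjusted p under 0.05) and 0 by limma without reference mouse 2, HFepa mouse 2 or HFepa mouse 6. HFepa vs. HFoleic gave 0 calls by limma (0% of 30003 probes), 2910 probes having an unadjusted p under 0.05, and 0 by the methods' t-test.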

How the data were processed

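For each of 24 one-colour (Cy3) Agilent arrays, 1 per mouse, the authors deposited the output of Feature Extraction 10.10.1.1, in which the median, mean and local background signals are intensities without normalization, and the processed signal is an intensity corrected for background and detrended by the scanner software, per the file headers. Marks for spots well above background, saturated or outlying are 0 or 1 per the file headers. The authors also deposited a log2 table of the median signal, filtered (the filter is not given in the sources used here) and quantile normalized, with 32176 probes and 2550 empty cells, each column of which had a correlation of at least 0.9997 with its own array's log2 median signal. Probe positions are in build mm9, per the labels of the probes in these files.

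From each array's 59305 spots that are no controls, outlier spots (134 to 627 an array) were left out, spots of a probe were averaged, and the log2 median signal was quantile normalized between arrays. Probes well above background on 75% of the arrays of at least 1 group were tested (30003). Signals of Tff1 and Tff2 are from all probes normalized together. The number of arrays limits the precision. Groups and mouse numbers came from the sample labels. A mouse is the replicate. Group means were compared by limma 3.58.1 (R 4.3.3, lmFit and eBayes, two-sided) with 1 spread for all groups, and slopes on Tff3 were fitted with the group means in the model, with Benjamini-Hochberg adjustment over all tested probes. The tests were checked on simulated data. The methods' t-test is the plain pairwise test with the same adjustment.

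Same-numbered mice of different groups did not deviate together (22 pairs, correlations of -0.298 to 0.348), so the numbers only name mice. Of a gene with several probes, the brightest tested one was used. Named were Tff3, the measured mucus partners and receptors, genes within 500 kb, the 8 positive and 6 negative slopes of smallest p among genes with a symbol, and up to 4 members of each other list by p. Tff3 and the 17 lists (235 genes) were chosen with earlier results of these data known, so they support nothing by themselves. Alternatives were the processed signal, normexp background correction, the authors' table, no filter, outlier spots kept, slide, slide row or replicate number as a block, ranks of Tff3 within groups, and leaving out mice. Cell type sums are of unlogged normalized signals. The values of 2 genes are not reported here. Promoter and protein sequences of Tff3 were not used here.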

Additional observations from a re-analysis of the deposited data

Results flagged for a closer look

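Single mice lay far from the rest of their group in 3 of 9 checks of Tff1, Tff2 and Tff3 by group, where normally distributed values give about 1 in 20. All 3 were checks of Tff1 or Tff2, which were near background in most mice, so that share need not hold for them. The Tff2 signal of HFepa mouse 4 was 8.42 on the log2 scale, against 5.54 in the nearest mouse of its group, and this mouse was the only HFepa mouse with Tff2 well above background. The Tff2 signal of HFoleic mouse 3 was 6.48, against 5.59 in the nearest. The Tff1 signal of HFoleic mouse 6 was 6.67, against 5.82 in the nearest. Tff3 itself held no such mouse, with reference mouse 5 (14.08, nearest 12.09) the closest to it. In none of the 3 mice above was the Tff3 signal the highest of its group, with HFepa mouse 4 at 9.13, HFoleic mouse 3 at 7.36 and HFoleic mouse 6 at 10.14.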

How the results depend on the processing

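Over all slides together, the Tff3 differences kept their direction under every alternative, most of which reuse the signals of the same probe. Inside single slides and rows HFepa vs. HFoleic did not keep it, with -0.38 on slide 3 and -0.08 in slide row 1. Leaving out 1 mouse, HFoleic vs. reference lay between -3.13 and -2.34, HFepa vs. reference between -2.16 and -1.60 and HFepa vs. HFoleic between 0.45 and 1.18, and under the other 9 alternatives between -2.84 and -2.17, -2.09 and -1.44, and 0.57 and 0.86. Another Tff3 probe could not be tried, since the array holds 1. HFoleic vs. reference gave 2170 called probes, 1601 to 3059 without 1 mouse, and 1451 to 2305 otherwise. HFepa vs. reference gave 118, but 47 with the processed signal, 0 without the filter on dim probes, 0 by the methods' t-test and 44 without reference mice 3 and 5, and without 1 mouse between 0 (reference mouse 2, HFepa mouse 2 or 6) and 496 (reference mouse 8). HFepa vs. HFoleic gave 0, but 3 without reference mice 3 and 5, and 0 to 14 (HFepa mouse 5) without 1 mouse. The slope on Tff3 gave 1, but 4 with the processed signal, 5 with normexp background correction, 4 with slide row as a block, 0 on ranks of Tff3, 0 without the 2 mice whose Tff3 lay farthest from their group median, reference mouse 5 and HFoleic mouse 2, and 5 without reference mice 3 and 5. Without 1 mouse it gave 1 to 17, the most without HFepa mouse 4, then 12 without HFoleic mouse 2. With the replicate block HFoleic vs. reference gave 1747 probes, HFepa vs. reference 104, HFepa vs. HFoleic 0 and the slope 0. The cause of these changes was not tested. Over all named genes with a call, 180 of the recomputed calls were lost and 2132 kept, and none reversed. Losses were uneven, from 20 of 34 alternatives for the endoplasmic reticulum stress gene Dnajc3 to 0 for genes such as Irs2. Probes near background, Tff1 and Tff2 among them, hold little more than a bound.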
